A study of Mus musculus with 33 samples.

Results

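The GABAergic lineage genes described here are Dlx1, Dlx2, Dlx5, Dlx6, Gad1, Gad2, Lhx6 and Nkx2-1, 8 of the 20665 protein-coding genes that RefSeq places on chromosomes 1 to 19 of GRCm38.p6. They were chosen by name, and all 8 were found. Chromatin of C57BL/6 origin was profiled by CUT&RUN, which releases the DNA under an antibody from unfixed cells, with antibodies to H3K9me2 (dimethylated lysine 9 of histone H3), to Lamin B1 and with IgG as control. The sources were right forebrain lobes of E11.5 embryos, whole hearts of E11.5 embryos, and a mouse embryonic stem (mES) cell line kept in LIF with the inhibitors PD0325901 and CHIR99021 (2i). The embryos came from wild-type C57BL6J dams and were pooled by tissue, with 3 litter pools per tissue and 3 culture vessels of the single mES line. There were 33 libraries. H3K9me2 and Lamin B1 each had 3 per source, and IgG had 6 in forebrain and 6 in heart, against 3 in mES cells.

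What was analysed are 9 deposited lists of domains, 3 per source, in whole bins of 10 kb. They name stretches as LAD, KOD or open, and bins outside them are given here as in no list. A LAD is a lamina-associated domain, a stretch of chromatin at the nuclear envelope. KOD is not defined in the labels. In work on the nuclear lamina it stands for a domain with H3K9me2 but without lamina contact. Each list combines the replicates of its source, so every value below is 1 value per source with no replicate error, the depth behind it is unknown, and no difference between sources could be tested. Expression was not measured, so the labelled tissues could not be checked against marker genes, and a state does not say whether a gene was active. A list from a whole tissue also averages over its cells, and the share of GABAergic precursors in the forebrain pools is not stated in the labels.

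GABA is the main inhibitory transmitter of the forebrain. The neurons that make it arise in the ventral forebrain, in the ganglionic eminences, and many migrate from there into the cortex. The homeobox factors Dlx1 and Dlx2 drive this fate and act upstream of Dlx5 and Dlx6. Nkx2-1 specifies the medial ganglionic eminence and activates Lhx6, a LIM homeobox factor of migrating cortical interneurons. Gad1 and Gad2 encode the glutamate decarboxylases that make GABA from glutamate. H3K9me2 and contact with the lamina are both known as features of repressed chromatin.

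Of the 8 members, 3 were KOD in forebrain (Dlx1, Dlx2 and Gad1), 4 were open (Dlx5, Dlx6, Lhx6 and Nkx2-1) and 1, Gad2, was LAD. Each gene was given the state found over the largest part of its body. KOD, open and LAD held 18.9%, 57.4% and 16.5% of all protein-coding genes in forebrain, and 7.21% were in no list. In heart 3 members were KOD, 4 were open and 1 was in no list, against 17.8%, 58.0% and 9.99% of all genes. In mES cells 1 was KOD, 6 were open and 1 was in no list, against 12.9%, 63.6% and 7.05% of all genes. No member was LAD over most of its body in heart or mES cells, where 14.2% and 16.5% of all genes were. A list of 8 genes moves by 12.5% with each gene, and the pairs Dlx1 with Dlx2 and Dlx5 with Dlx6 are neighbours 9.43 and 9.83 kb apart, so the members make up 6 loci. Of these 8 genes 5 lie on chromosome 2.

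**Figure D1:**
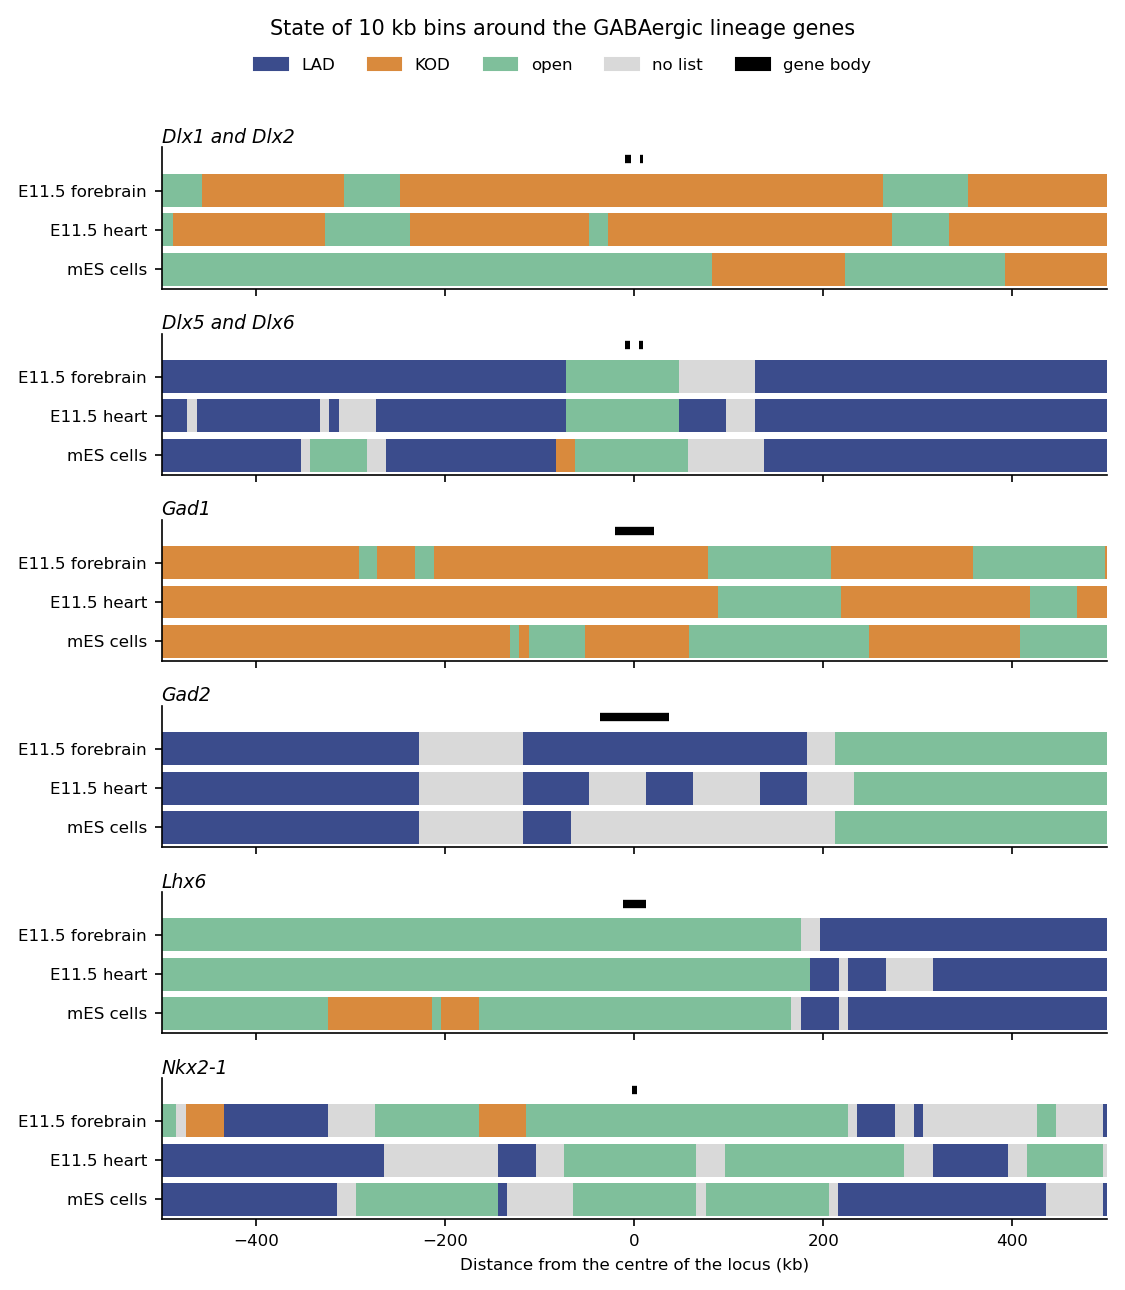
State of each 10 kb bin within 500 kb of the centre of each locus (horizontal axis, distance in kb), in E11.5 forebrain, E11.5 heart and mES cells from top to bottom, with gene bodies in black. Dlx1 and Dlx2 lie in KOD in both tissues and in an open domain in mES cells. Dlx5 and Dlx6 lie in an open domain of 120 kb in all 3 sources. Listed LADs border it on both sides in heart alone, where the one on the higher side is under 100 kb long. The LAD over Gad2 is unbroken in forebrain alone.

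The members whose state differed between sources, Dlx1 and Dlx2, and the pair of decarboxylase genes with unlike states, Gad1 and Gad2, are the ones the results turn on, and the 250 bases before their transcription starts are shown for that reason. The sequences are from RefSeq (GRCm38.p6), read 5′ to 3′ on the strand of the gene, and capitals mark CpG dinucleotides. The window of Dlx1 is chr2:71529195-71529444 on the plus strand and that of Dlx2 is chr2:71546755-71547004 on the minus strand. That of Gad1 is chr2:70561879-70562128 and that of Gad2 is chr2:22622077-22622326, both on the plus strand. The windows of Dlx1, Gad1 and Gad2 lie inside the annotated body, which begins earlier because of other transcripts.
Dlx1: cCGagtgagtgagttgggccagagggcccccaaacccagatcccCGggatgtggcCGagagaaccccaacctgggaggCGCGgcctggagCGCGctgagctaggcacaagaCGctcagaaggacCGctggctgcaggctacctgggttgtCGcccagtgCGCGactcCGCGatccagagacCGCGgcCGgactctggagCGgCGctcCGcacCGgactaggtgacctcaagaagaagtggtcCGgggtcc
Dlx2: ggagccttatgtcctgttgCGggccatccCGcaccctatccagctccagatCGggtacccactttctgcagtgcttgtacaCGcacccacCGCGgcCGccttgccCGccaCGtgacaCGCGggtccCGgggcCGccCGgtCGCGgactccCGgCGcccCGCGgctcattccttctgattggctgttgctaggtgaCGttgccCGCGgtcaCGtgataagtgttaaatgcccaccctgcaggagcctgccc
Gad1: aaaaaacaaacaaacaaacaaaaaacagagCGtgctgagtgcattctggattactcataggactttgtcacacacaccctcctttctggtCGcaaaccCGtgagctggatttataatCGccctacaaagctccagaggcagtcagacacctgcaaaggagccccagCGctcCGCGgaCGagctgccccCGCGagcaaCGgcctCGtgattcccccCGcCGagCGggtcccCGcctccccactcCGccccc
Gad2: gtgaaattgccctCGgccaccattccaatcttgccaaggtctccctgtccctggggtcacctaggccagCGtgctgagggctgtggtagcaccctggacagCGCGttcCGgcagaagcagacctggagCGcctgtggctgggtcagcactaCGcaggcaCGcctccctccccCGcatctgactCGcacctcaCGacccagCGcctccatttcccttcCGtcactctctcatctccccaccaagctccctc

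These stretches held 22 CpGs in Dlx1, 24 in Dlx2, 17 in Gad1 and 13 in Gad2, where the median of the 32851 RefSeq windows of the same length was 6. Windows with no more CpGs made up 86.7% of all windows for Dlx1, 89.3% for Dlx2, 78.3% for Gad1 and 70.6% for Gad2. Their GC content was 68.0%, 66.4%, 58.0% and 64.0% in that order, against a median of 52.4%. The 6 members in the table also include Nkx2-1, with 9 CpGs, and Lhx6, whose windows before its 3 starts held 14, 17 and 7. Dlx5 and Dlx6 were not matched. The homeodomain core TAATTA, which reads the same on both strands, was in none of the 8 windows and in 4.84% of all windows. The letters are thus not in these windows, and nothing follows from that about any factor. All 4 printed windows are richer in CpG than the median window, whichever list their gene was in.

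Dlx1 and Dlx2 were KOD over their whole bodies in both embryonic tissues and open over their whole bodies in mES cells. Dlx1 (gene 13390, chr2:71528113-71533981) was 100% KOD in forebrain, 100% KOD in heart and 100% open in mES cells. Dlx2 (gene 13392, chr2:71543408-71546754) had the same values. Gad2 aside, 7 members were listed in every source. Of these 7 only Dlx1 and Dlx2 changed state between forebrain and mES cells, and only they did so between heart and mES cells. Among all protein-coding genes listed in both sources, the share that changed state was 22.6% for forebrain against mES cells and 19.6% for heart against mES cells. None of the 7 members differed between forebrain and heart, where 15.2% of all genes did. The other 5 of the 7 had 1 state throughout, as 71.7% of all genes listed in every source had. KOD in both tissues with open in mES cells applied to 2 of the 7 members and to 7.72% of all genes listed in every source.

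The surroundings of Dlx1 and Dlx2 differed as their bodies did. The 100 kb on each side of Dlx1 were 100% KOD in forebrain, 90.0% KOD with 10.0% open in heart, and 6.99% KOD with 93.0% open in mES cells. For Dlx2 these shares were 100% KOD in forebrain, 90.0% KOD in heart and 13.4% KOD with 86.6% open in mES cells. The stretches overlap, since each gene lies in the flank of the other. No base of either flank was LAD or in no list in any source. The open part of the heart flank was a gap of 20% of the lower-coordinate side, and the KOD part in mES cells was on the higher-coordinate side for both genes.

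The KOD that holds both genes was 510 kb long in forebrain (chr2:71290001-71800000) and 300.0 kb in heart (chr2:71510001-71810000). The open domain that holds them in mES cells was 630 kb long (chr2:70990001-71620000). Of the genes that were KOD in the same tissue, 70.9% lay in a KOD no longer than this in forebrain and 56.3% in heart, and of the open genes of mES cells 60.3% lay in an open domain no longer than this. The heart KOD began 18.1 kb before the body of Dlx1 in the direction of lower coordinates. The neighbours moved with the pair. Hat1, a histone acetyltransferase gene, was 100% KOD in forebrain, 100% KOD in heart and 100% open in mES cells. Metap1d, a mitochondrial methionine aminopeptidase gene, was 100% KOD in forebrain, 72.2% KOD and 27.8% open in heart, and 100% open in mES cells. The antisense RNA Dlx1as, which overlaps Dlx1, had the states of Dlx1, and since bins of 10 kb hold both strands the lists cannot tell them apart.

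Dlx5 and Dlx6, the second Dlx pair, were open over their whole bodies in all 3 sources, inside an open domain of 120 kb. Dlx6 (gene 13396, chr6:6863334-6867970) and Dlx5 (gene 13395, chr6:6877801-6882068) were 100% open in all 3 sources. The open domain spanned chr6:6800001-6920000 in forebrain and in heart and chr6:6810001-6930000 in mES cells, so in mES cells it lay 1 bin further along. The domain bordered a LAD on the lower side and bins in no list on the higher side in forebrain, LADs on both sides in heart, and a KOD on the lower side and bins in no list on the higher side in mES cells. Of all open genes, 13.6% in forebrain and 15.3% in heart, against 6.78% in mES cells, lay in an open domain of at most this length. Of the 9041 genes open in all sources, 105 (1.16%) lay in one of at most 120 kb in each of them, a count made after the maps were seen. The lncRNAs Dlx6os1 and Dlx6os2, which overlap Dlx6, were open in all 3 sources.

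The 100 kb on each side of Dlx5 were 57.9% open in each source, and the rest differed. LAD took 11.1% in forebrain and 36.1% in heart, against 6.10% in mES cells, no list took 31.0%, 6.03% and 26.0% in that order, and KOD took 10.0% in mES cells and none in the tissues. For Dlx6 the open share was 57.7% in each source, and LAD took 18.3% in forebrain and 42.3% in heart, against 13.3% in mES cells. On the higher-coordinate side of Dlx5, 50.0% of the 100 kb was LAD in heart and none in forebrain or mES cells, and 62.1% was in no list in forebrain and 12.1% in heart, against 52.1% in mES cells. This heart LAD ended within the 100 kb, so it is not kept in the setting without domains under 100 kb. Its bins were in no list in forebrain, and most of them were in mES cells, which is not a measured absence of lamina contact. On the lower-coordinate side LAD took 22.2% in forebrain and 22.2% in heart, against 12.2% in mES cells, where KOD took 20.0%. The nearest LAD to Dlx5 was 77.8 kb away on the lower side in forebrain and 37.9 kb on the higher side in heart. In mES cells it was 87.8 kb away on the lower side. The median distance over all protein-coding genes was 629 kb in forebrain and 446 kb in heart, against 690 kb in mES cells. Sdhaf3, an assembly factor gene of succinate dehydrogenase on the higher side, was 47.4% LAD in forebrain, 64.2% LAD in heart and 35.4% LAD in mES cells, with the rest in no list. Over 500 kb on each side of Dlx5, a width chosen after the maps were seen, LAD took 80.4% in forebrain and 79.4% in heart, against 69.4% in mES cells.

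**Figure D2:**
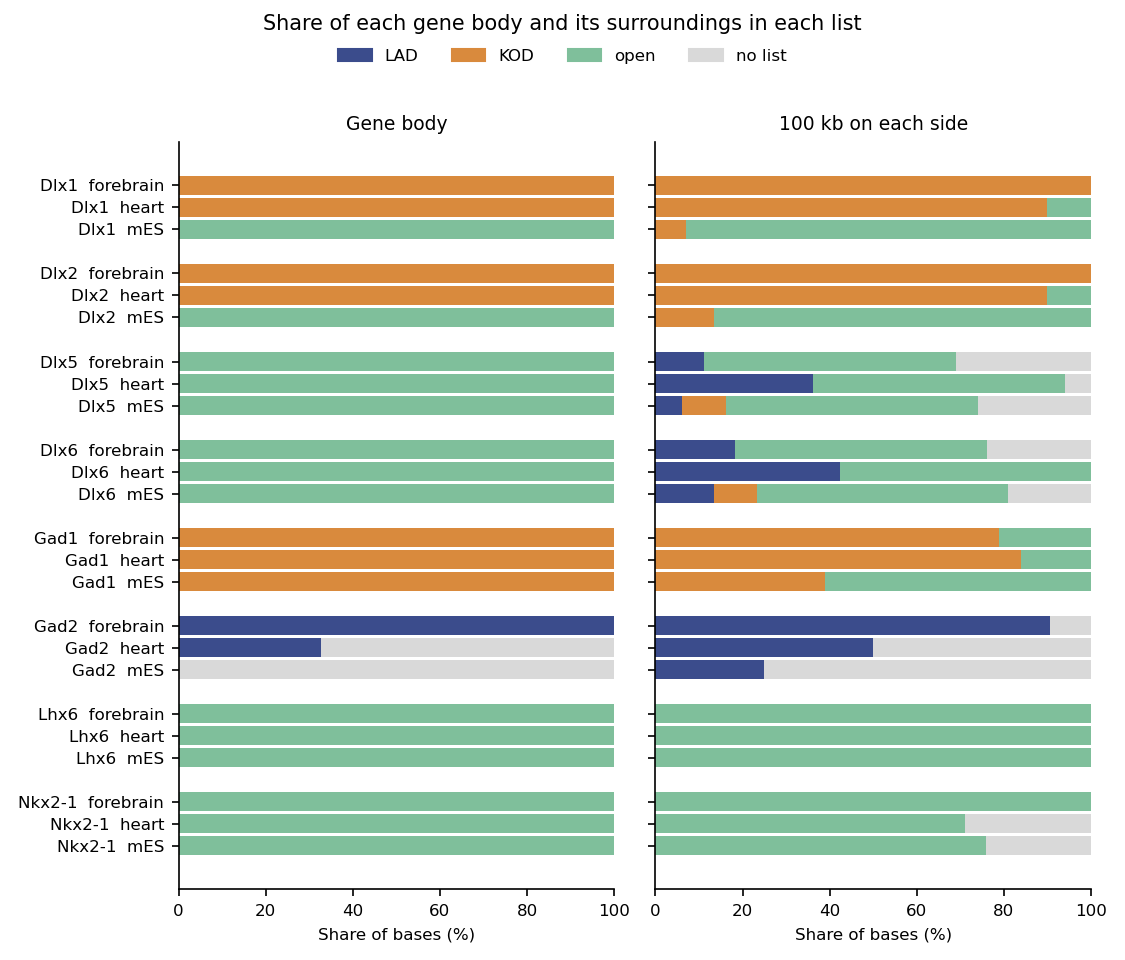
Share of bases in LAD, KOD, open and no list (horizontal axis, percent) for the body of each gene (left) and for the 100 kb on each side of it (right), with forebrain, heart and mES from top to bottom for each gene. Bodies were wholly in 1 state in every source except Gad2 in heart (32.8% LAD, 67.2% in no list), while the surroundings of Gad1 were 79.0% KOD in forebrain and 84.0% in heart, against 39.0% in mES cells.

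Gad1 and Gad2, the decarboxylase genes, had unlike states. Gad1 (gene 14415, chr2:70561303-70602014) was 100% KOD in all 3 sources. It was the member that was KOD in all 3 sources, as 5.90% of all protein-coding genes were. The KOD around it was 290 kb long in forebrain (chr2:70370001-70660000), 630 kb in heart (chr2:70040001-70670000) and 110 kb in mES cells (chr2:70530001-70640000). Of the KOD genes of the same source, 51.0% in forebrain and 79.6% in heart, against 24.4% in mES cells, lay in a KOD no longer than that of Gad1.

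The flanks of Gad1 differed although its body did not. The 100 kb on each side were 79.0% KOD in forebrain, 84.0% KOD in heart and 39.0% KOD in mES cells, with all the rest open. On the lower-coordinate side, where transcription of Gad1 starts, KOD took 100% in forebrain and 100% in heart, against 40.0% in mES cells. On the other side it took 58.0%, 68.0% and 38.0% in the same order. Sp5, a transcription factor gene of Wnt signalling on the lower side, was 100% KOD in forebrain, 100% KOD in heart and 100% open in mES cells. Erich2 beside it was 100% KOD in both tissues and 66.2% open in mES cells. Gorasp2, a Golgi protein gene on the higher side, was open over 100% of its body in forebrain and 71.9% in heart, against 100% in mES cells.

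Gad1 and Dlx1 are 926 kb apart on chromosome 2. The stretch between their bodies (chr2:70602015-71528112), examined after the maps were seen, was 64.4% KOD in forebrain, 68.7% KOD in heart and 21.4% KOD in mES cells, and the rest was open in each source. No LAD lay in it. On the whole of chromosome 2 KOD covered 13.5% in forebrain and 13.4% in heart, against 13.2% in mES cells. The 100 kb on each side of all protein-coding genes were on average 21.6% KOD in forebrain and 21.2% in heart, against 15.1% in mES cells. A higher KOD share in the tissues was thus also found around genes in general, where the difference was smaller. Over the whole of chromosome 2 the shares were nearly alike. Whether this stretch differs from either was not tested. The nearest LAD was 1171 kb from Gad1 in forebrain and 1231 kb in heart, against 1141 kb in mES cells. For Dlx1 it was 2138 kb in forebrain and 2198 kb in heart, against 2108 kb in mES cells. These distances were longer than the median of all genes in each source.

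Gad2 (gene 14417, chr2:22621015-22693877) was the member found in a LAD. Its body of 72.9 kb was 100% LAD in forebrain. In heart 32.8% of it was LAD and 67.2% was in no list, and in mES cells 100% was in no list. No base of the body or of the 100 kb on each side was KOD or open in any source. With 2 of 3 sources giving no state for most of the body, Gad2 enters none of the counts of changed members above. LAD in forebrain with no list in mES cells applied to 2.08% of all genes, and the full pattern of Gad2, LAD in forebrain and no list in the others, to 1.04%.

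The 100 kb on each side of Gad2 were 90.5% LAD in forebrain, 50.0% LAD in heart and 25.0% LAD in mES cells, with all the rest in no list. The forebrain LAD was 300.0 kb long (chr2:22540001-22840000), and 18.1% of the LAD genes of forebrain lay in a LAD no longer than this. The stretch without a list in mES cells was 280 kb long (chr2:22590001-22870000), and 76.7% of the mES genes in no list lay in a stretch no longer. In heart the stretch in no list over most of the body was 60 kb long (chr2:22610001-22670000), with LAD on both sides. The heart state of Gad2, and with it the full pattern, rests on this gap. Why bins were left out of the lists is not given, so a missing LAD at Gad2 in mES cells is an absence from the list and not a measured loss of lamina contact. Bins in no list made up 8.34% of chromosome 2 in forebrain and 14.2% in heart, against 8.74% in mES cells, and the part of this in the Gad2 values was not tested. Myo3a, a myosin gene of hair cells on the lower side, was LAD over 71.8% of its body in forebrain and 69.7% in heart, against 64.6% in mES cells. Apbb1ip, an adaptor gene of integrin signalling on the higher side, was 70.2% LAD in forebrain and 41.8% LAD in heart, and 95.3% of it was in no list in mES cells.

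Lhx6 and Nkx2-1, the pair of factors that act in sequence in the medial ganglionic eminence, were open over their whole bodies in all 3 sources. Lhx6 (gene 16874, chr2:36081950-36105992) was also 100% open over the 100 kb on each side in all 3 sources, and was the only member for which no bin within 100 kb differed between any pair of sources. Its open domain was 1040 kb long in forebrain (chr2:35230001-36270000), 930 kb in heart (chr2:35350001-36280000) and 330 kb in mES cells (chr2:35930001-36260000). Of the open genes of the same source, 85.4% in forebrain and 85.1% in heart, against 29.6% in mES cells, lay in an open domain no longer. The difference lay on the lower-coordinate side, where the nearest KOD was 852 kb from Lhx6 in forebrain and 732 kb in heart, against 152 kb in mES cells. On the other side a LAD began 184 kb away in forebrain and 174 kb in heart, against 164 kb in mES cells. The neighbours within 100 kb, Ndufa8 of respiratory complex I, Morn5, Rbm18 and the mitochondrial ribosome recycling factor gene Mrrf, were open in all 3 sources.

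Nkx2-1 (gene 21869, chr12:56531935-56536908) was 100% open over its body in all 3 sources, with a longer listed open domain around it in forebrain. The 100 kb on each side were 100% open in forebrain, 71.0% open in heart and 76.0% open in mES cells, and the rest, 29.0% in heart and 24.0% in mES cells, was in no list. The open domain was 340 kb long in forebrain (chr12:56420001-56760000), 140 kb in heart (chr12:56460001-56600000) and 130 kb in mES cells (chr12:56470001-56600000). In heart and mES cells the open domain ended at bins in no list on both sides. The shorter length there is thus not a measured absence of open chromatin. Of the open genes of the same source, 44.3% in forebrain and 18.9% in heart, against 8.04% in mES cells, lay in an open domain no longer. The nearest LAD was 233 kb away in forebrain and 102 kb in heart, against 132 kb in mES cells. Over 500 kb on each side LAD took 16.7% in forebrain and 35.8% in heart, against 42.5% in mES cells. Over the same width no list took 26.0% in forebrain and 23.7% in heart, against 17.0% in mES cells, and KOD took 9% in forebrain and none in the others. Nkx2-9, the related homeobox gene beside it, was 100% open in forebrain and in mES cells and wholly in no list in heart. Chromosome 12 as a whole was 42.9% LAD in forebrain and 38.6% in heart, against 42.0% in mES cells, the highest of these shares being that of forebrain.

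**Figure D3:**
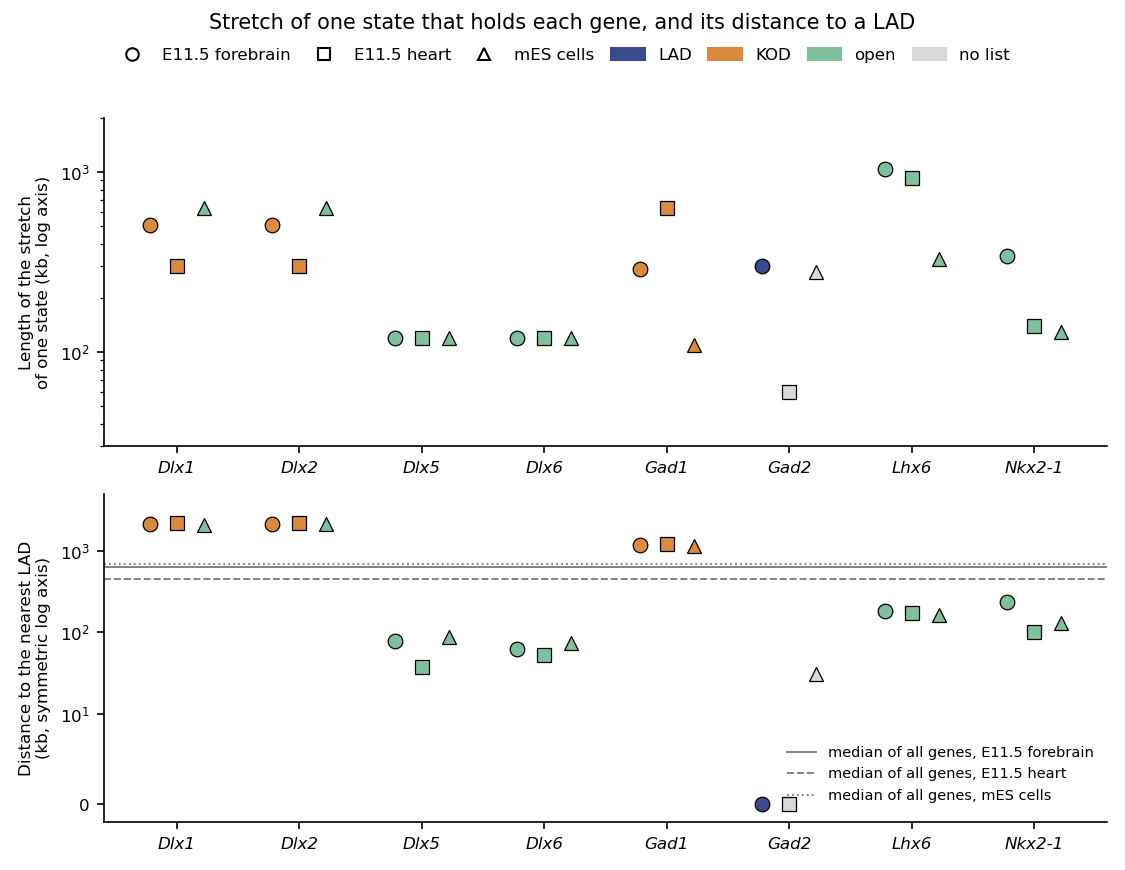
Length of the stretch of 1 state that holds each gene (upper panel, kb on a log axis) and distance from the gene body to the nearest LAD (lower panel, kb on a symmetric log axis), with circles for E11.5 forebrain, squares for E11.5 heart, triangles for mES cells, colours for the state and grey lines for the median distance of all protein-coding genes. Lhx6 and Nkx2-1 have longer open domains in forebrain (1040 and 340 kb) than in mES cells (330 and 130 kb), and Dlx1, Dlx2 and Gad1 lie at least 1141 kb from any LAD in each source. The open domain of Nkx2-1 in mES cells ends at bins in no list on both sides.

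Averaged over the 8 members, the 100 kb on each side were 34.9% ± 48.6 KOD in forebrain and 33.0% ± 45.6 in heart, against 9.92% ± 12.9 in mES cells (SD among the 8 genes, which share flanks and are not replicates). The same means over all protein-coding genes were 21.6% in forebrain and 21.2% in heart, against 15.1% in mES cells. The open share was 42.1% in forebrain and 40.3% in heart, against 66.5% in mES cells, and over all genes it was 52.6%, 52.3% and 60.0% in that order. These means join unlike loci and were not tested. The loci of Dlx1 with Dlx2 and of Gad1 account for all the KOD in the tissues, since no other member had KOD within 100 kb in forebrain or heart.

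Other genes of the GABAergic pathway were taken from a list, of which 56 are on chromosomes 1 to 19, the ones the deposited lists cover. The 56 include Dlx3 and Dlx4, counted as relatives of the members by sequence and not as known factors of this lineage. Both are among the genes that changed between each tissue and mES cells. Of the 56, 16 were KOD, 30 open, 7 LAD and 3 in no list in forebrain. In heart 14 were KOD, 34 open, 3 LAD and 5 in no list, and in mES cells 14 were KOD, 27 open, 8 LAD and 7 in no list. KOD was thus the state of 28.6% of these genes in forebrain and 25.0% in heart, against 25.0% in mES cells, where 18.9%, 17.8% and 12.9% of all genes were KOD in that order. Of those listed in both sources, 12 of 47 (25.5%) changed state between forebrain and mES cells, 18 of 46 (39.1%) between heart and mES cells, and 11 of 49 (22.4%) between forebrain and heart. Among all genes these shares were 22.6%, 19.6% and 15.2%, and the differences from them were not tested. With 20 kb trimmed from the ends of domains, 6, 4 and 4 genes changed in these pairs, so the counts depend on bins near domain ends. Trimming left 11 of the 56 in no list in forebrain and 21 in heart, against 16 in mES cells. Such genes leave the comparison, so the trimmed counts are over fewer genes and are not shares of the 56.

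Among the developmental factors of the list, Gsx2, a homeobox factor of the lateral ganglionic eminence, the homeobox gene Gbx2, and the Dlx pair Dlx3 and Dlx4 (chr11:95120117-95125296 and chr11:95140447-95146294) had the pattern of Dlx1 and Dlx2. Dlx3 and Dlx4 are relatives of the members by sequence and are not known as factors of the forebrain lineage. Each of the 4 was 100% KOD in forebrain, 100% KOD in heart and 100% open in mES cells, as was Drd1, the dopamine receptor gene of striatal neurons. Counted by pair, Dlx1 with Dlx2 and Dlx3 with Dlx4 were KOD in both tissues and open in mES cells, and Dlx5 with Dlx6 was open throughout. Of the 44 other GABAergic genes listed in every source, 5 (11.4%) had the pattern of Dlx1 and Dlx2, with Dlx3 and Dlx4 among them. The pattern of Dlx1 and Dlx2 was that of 7.72% of the protein-coding genes listed in every source. Without chromosome 11, on which Dlx3 and Dlx4 lie, it was that of 6.38% of them. Over all 20665 genes, listed or not, it was that of 6.51%. Without that chromosome KOD held 16.2% of all genes in forebrain, against 18.9% with it. Gsx1, Lhx8 and Satb1, transcription factor genes of this lineage, were open in all 3 sources like Lhx6, Nkx2-1, Dlx5 and Dlx6, as were 43.8% of all protein-coding genes. Nkx6-2 and Prox1, homeobox factors, were open in both tissues and KOD in mES cells. Olig2, a basic helix-loop-helix factor, was KOD in forebrain and open in heart and mES cells, Olig1 and Maf were KOD in forebrain and mES cells and open in heart, and Sp9 was KOD in heart and open in forebrain and mES cells. Sox6, which acts after Lhx6 in cortical interneurons, was KOD in forebrain, open in heart and LAD in mES cells, and Isl1, a LIM homeobox factor of striatal neurons, was LAD in forebrain and mES cells and open in heart.

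Among the genes that carry or break down GABA, Slc32a1, the transporter that loads it into vesicles, and Abat and Aldh5a1, enzymes of its breakdown, were open in all 3 sources. The uptake transporter gene Slc6a11 was KOD in all 3, the pattern of Gad1. Ackr3, a chemokine receptor gene of migrating interneurons, Npy, Htr3a and Drd2 shared that pattern as well. Penk, the enkephalin gene of striatal neurons, was the 1 gene of these lists with the pattern of Gad2, 100% LAD in forebrain and wholly in no list in heart and mES cells. Of the other genes whose state differed, Erbb4, the neuregulin receptor of migrating interneurons, was LAD in forebrain and mES cells and open in heart. Foxp2 was open over 44.8% of its body and LAD over 36.7% in forebrain, and LAD over 96.3% in mES cells. Reln was open over 61.9% in heart, and in mES cells LAD over 47.8% and open over 37.0%. Pvalb was open in forebrain and KOD in heart and mES cells, Calb2 and Cck were KOD in forebrain and mES cells and open in heart, and Kit was open in forebrain and mES cells and KOD in heart.

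The glutamatergic neurons of the dorsal forebrain are the other main lineage there. Of 17 genes of that lineage 4 were KOD, 9 open, 1 LAD and 3 in no list in forebrain, 1 was KOD, 13 open, 1 LAD and 2 in no list in heart, and 1 was KOD, 10 open, 3 LAD and 3 in no list in mES cells. KOD thus held 23.5% of them in forebrain and 5.88% in heart, against 5.88% in mES cells. Of all genes 18.9%, 17.8% and 12.9% were KOD in that order. Of those listed in both sources, 5 of 11 (45.5%) changed state between forebrain and mES cells and 2 of 12 (16.7%) between heart and mES cells. Between forebrain and heart 3 of 13 (23.1%) did. Among all genes these shares were 22.6%, 19.6% and 15.2% in that order, and among the other GABAergic genes 25.5%, 39.1% and 22.4%. Of these genes 1, Neurog1, had the pattern of Dlx1 and Dlx2. Emx2, Lhx2 and Neurod2 were KOD in forebrain and open in heart and in mES cells, as was Olig2 among the GABAergic genes. With 1 list per source and state, whether the lineages differ was not tested.

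**Figure D4:**
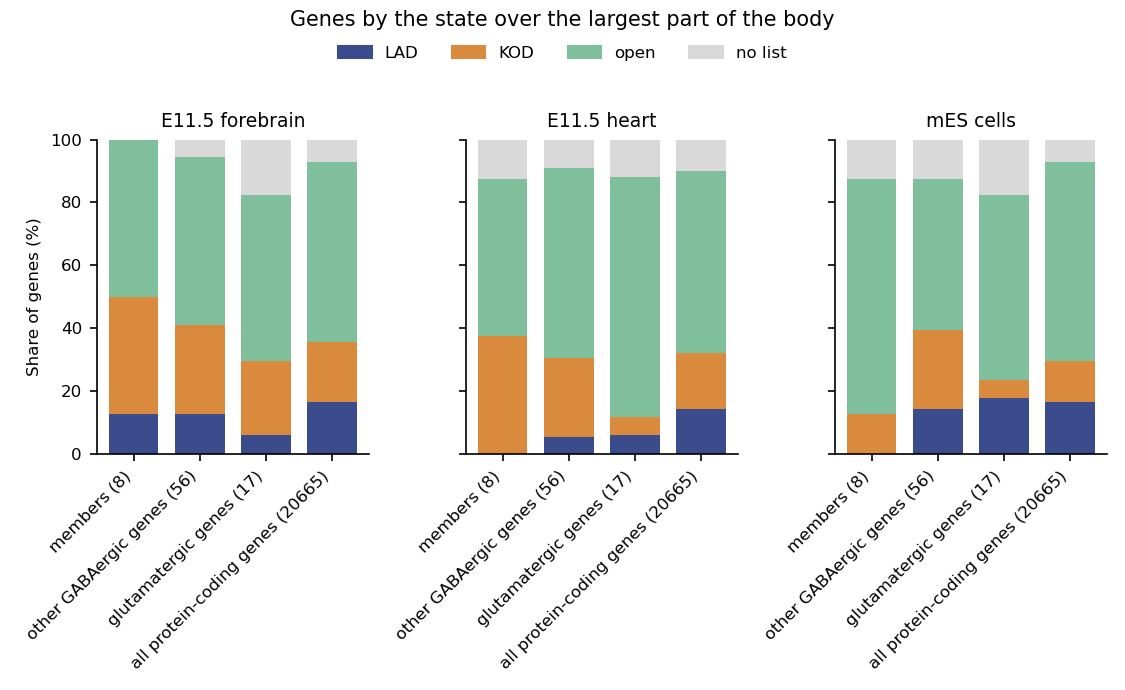
Share of genes (vertical axis, percent) by the state over the largest part of the gene body, in E11.5 forebrain, E11.5 heart and mES cells, for the 8 members, the 56 other GABAergic genes, the 17 glutamatergic genes and all 20665 protein-coding genes. KOD holds 37.5% of the members in forebrain and in heart and 12.5% in mES cells, with each gene worth 12.5%.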

How the data were processed

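CUT&RUN libraries for H3K9me2, Lamin B1 and IgG were made from E11.5 forebrain, E11.5 heart and mES cells. The submitters' processing notes name Bowtie2 2.5.0 and the mm10 genome, cutadapt 4.2 and Trim Galore, deepTools and Picard, without their order. The authors deposited 9 lists of domain positions, each named in the labels under the H3K9me2 and Lamin B1 libraries of its source. The method of domain calling and the use of IgG were not stated in the labels or files. The lists hold start and end positions alone, so depth is unknown.

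Lists were painted on bins of 10 kb (Python 3.11.15, numpy 2.4.6, pandas 2.3.3, matplotlib 3.10.9), and the share of bases in each state was computed for gene bodies and for 100 kb on each side. The share function was tested on simulated domains. Genes and promoter windows came from RefSeq GRCm38.p6, the assembly behind mm10. Coordinates are counted from 1. A gene's state is the one over the largest part of its body. Named are all members, the protein-coding genes within 100 kb of them, the other GABAergic genes whose state differed between sources listing them, and up to 5 list genes per member with its pattern. Some genes of these lists are counted but not reported by name here. The RNAs antisense to or beside Dlx genes and the glutamatergic genes that changed were named after their values were seen. The members and lists were chosen with earlier results of these data known.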

Additional observations from a re-analysis of the deposited data

How the results depend on the processing

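No paired analysis was possible because each list combines the replicates of its source, and for the same reason no replicate could be left out. The state of each of the 8 members in each source was the same with the state taken at the gene midpoint or at the transcription start (for the 6 members with a promoter window), with domain ends trimmed by 20 kb, without domains under 100 kb, and with gaps of at most 50 kb filled. Most of this was fixed beforehand. Bodies were wholly in 1 state except Gad2 in heart, so midpoint and start could change no other call. The listed domains giving members their state were at least 110 kb long, so leaving out shorter ones could not change it. Gap filling could act on Gad2 alone. In heart its stretch in no list was 60 kb long with LAD on both sides, just beyond the gaps filled. Counting neighbouring members as 1 locus, 1 locus differed between forebrain and mES cells and 1 between heart and mES cells.

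The mean shares of the members' surroundings depended more on the setting. With 20 kb trimmed, the part in no list was 39.8% in heart and 45.2% in mES cells, against 10.6% and 18.0%. This follows from the trimming, which turns the ends of domains into gaps. The LAD part in mES cells was 14.8% with 200 kb on each side and 31.2% with 500 kb, a width added after the data were seen, against 5.55% with 100 kb. Mean LAD shares of surroundings in heart were 4.69% with 20 kb trimmed and 3.68% without domains under 100 kb, against 16.1%, and in mES cells the mean KOD share was 2.25% with 20 kb trimmed, against 9.92%. The LAD share of bodies in heart, all of it in Gad2, was 0.67% trimmed and 0% without domains under 100 kb, against 4.10%.

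For the 56 other GABAergic genes, trimming 20 kb left 11 in no list in forebrain and 21 in heart, against 16 in mES cells, and 8 KOD in heart and 9 in mES cells. State then differed for 6 genes between forebrain and mES cells, 4 between heart and mES cells and 4 between forebrain and heart. Genes in no list in either source of a pair drop out of such counts. Without domains under 100 kb, 11, 17 and 13 were in no list in forebrain, heart and mES, and state differed for 7, 7 and 5 genes in the same pairs. At least part of the changes in that list thus lies in short domains or near domain ends. The shares of all protein-coding genes moved by less than 1.5 times at the midpoint and without chromosome 11.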
